A study of Rattus norvegicus with 12 samples.

Results

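In the motor cortex of 12 rats, 111 of 14985 transcribed features stood higher in all 3 unstimulated rats of the 6-OHDA model than in each of the 9 other rats, and the 100 with the widest separation are described here. The rats (Rattus norvegicus) fell into 4 groups of 3, the rats numbered 1 to 3 within each group in the titles: control rats without stimulation, unstimulated rats given 6-OHDA to model Parkinson's disease (called PD, as the labels do), stimulated controls and stimulated PD rats. Pulses at 130 Hz were delivered through a graphene array placed over primary motor cortex, daily for 1 hour during 2 weeks, and whether the stimulated controls followed the same schedule is not stated. The sources used here give neither strain, age, sex nor lesion side, name no sham operation and mention no batch of rats or libraries. Any of these that followed a group cannot be told apart from it.

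6-OHDA (6-hydroxydopamine) is a toxin that catecholamine neurons take up through their transporters, and it is used to destroy the dopamine neurons that project from the midbrain to the striatum. The motor cortex is itself a target of a sparser dopamine projection and is part of the loop through the basal ganglia whose activity is altered when dopamine is lost. Stimulation of the motor cortex acts on this loop from the cortical side, and the 4 groups allow features to be sought that stood apart in model rats only while they were not stimulated.

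The features were chosen on their levels in all 12 libraries. The level was log2(CPM + 0.5), where CPM is counted reads scaled to the same total in every library. Features averaging 0.5 CPM or more over the 12 rats were considered. The gap of a feature was its lowest level among the 3 PD rats minus its highest level among the 9 others. A positive gap was found for 111 features, the first 100 were taken, and 11 were left out. Because these levels chose the features, the separation of PD rats from the others is a description. Where counting intervals, or counts from a fit over all features, are printed for it, they are no test of it. The table names features by Ensembl gene identifier, and 0 of 16534 identifiers could be paired with a gene symbol from the tables used here. The 100 features are therefore not named or grouped by function, only the 2 with the widest gap are given by identifier, the others by their rank, and neither promoters, positions nor cell type markers of the cortex are analysed here.

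Libraries held 42905441 to 62082830 counted reads, and the PD libraries, with 47165351, 54050534 and 62082830, lay across most of that range. The 10 most abundant features of the table took 9.85% to 11.4% of reads in PD rats, 9.44% to 12.3% in stimulated PD rats and 7.64% to 8.71% in the other 6 rats. This concentration of reads therefore separated both lesioned groups from the unlesioned ones, whereas the 100 features were chosen to separate the PD rats alone. Its part in the results was not tested.

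The feature with the widest gap, ENSRNOG00000009564, was low in abundance. It stood at 4.64, 4.0 and 4.37 CPM in PD rats 1, 2 and 3, and at 2.98, 2.30 and 1.52 CPM in controls. Stimulated controls had 2.38, 1.55 and 2.24 CPM, and stimulated PD rats 2.75, 1.32 and 2.15 CPM. The 3 PD rats lay close together, while the 3 other groups covered the same low range. The mean was 4.33 ± 0.325 CPM in PD rats, and it was 2.27 ± 0.735 CPM in controls, 2.06 ± 0.446 CPM in stimulated controls and 2.07 ± 0.714 CPM in the stimulated PD group (SD, n = 3). The gap was 0.37 on the log2(CPM + 0.5) scale. The lowest PD library held 216 reads of this feature and the highest other library 128. Their ratio of CPM values was 1.34, with an exact conditional binomial 95% interval of 1.07 to 1.68. That interval covers counting error only, and the rule had fixed the ratio above 1.

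ENSRNOG00000016999, the second by gap, had a wider spread among PD rats. It stood at 12.3, 21.9 and 13.0 CPM in PD rats, with PD rat 2 far above the others of its group. Controls had 6.43, 5.46 and 6.04 CPM, stimulated controls 6.11, 6.13 and 8.46 CPM, and stimulated PD rats 9.59, 6.62 and 6.48 CPM. Stimulated PD rat 1 came nearest to the PD rats, and stimulated PD rats overlapped the range of stimulated controls. The mean was 15.7 ± 5.38 CPM in PD rats, and it was 5.98 ± 0.490 CPM in controls, 6.90 ± 1.35 CPM in stimulated controls and 7.56 ± 1.76 CPM in the stimulated PD group (SD, n = 3). The gap was 0.34 on the log2(CPM + 0.5) scale.

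The third feature by gap was abundant, with 284, 349 and 306 CPM in PD rats, 185, 221 and 214 CPM in controls, 207, 232 and 171 CPM in stimulated controls and 237, 188 and 235 CPM in stimulated PD rats. Here the groups outside PD overlapped each other throughout, and 13396 reads in the lowest PD library gave a ratio to the highest other library of 1.20 (exact binomial 95% interval 1.17 to 1.23). The fourth was scarce and even, with 2.23, 2.11 and 2.14 CPM in PD rats and 1.37, 1.70 and 1.46 CPM in stimulated PD rats, against 1.26, 1.42 and 1.17 CPM in controls and 1.12, 1.10 and 1.15 CPM in stimulated controls. For this feature each stimulated PD rat lay above each stimulated control but below each PD rat. The fifth stood at 4.86, 6.27 and 5.15 CPM in PD rats and 3.99, 3.32 and 3.66 CPM in controls. Its levels were 1.67, 2.77 and 2.01 CPM in stimulated controls and 4.10, 2.38 and 1.81 CPM in stimulated PD rats, so that each stimulated control lay below each control.

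**Figure D1:**
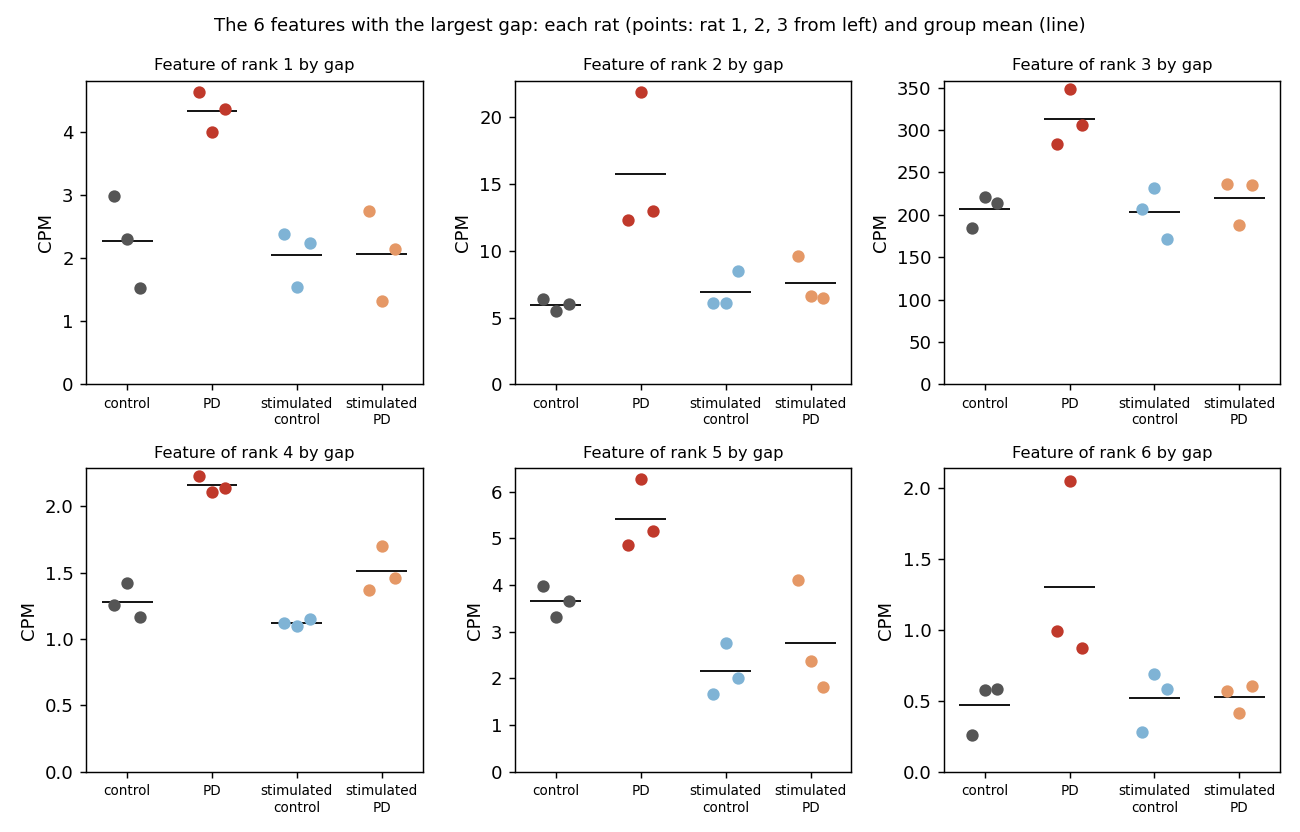
Level in CPM (vertical axes, from 0) of the 6 features with the widest gap in each rat of the 4 groups (horizontal axes); points are rats 1 to 3 from left to right and lines are group means. In each panel the 3 PD rats lie above the 9 others, by a margin that is small beside the spread of PD rats for ranks 2 and 6.

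The separation narrowed quickly down the list. Gaps of more than 0.2 were found for 6 features and of more than 0.1 for 24. The last 3 inside the limit of 100 had gaps of 0.0115, 0.0108 and 0.0098, and the first 3 outside it 0.0097, 0.0094 and 0.0074. The feature of rank 100 stood at 127, 167 and 143 CPM in PD rats with control rat 3 at 126 CPM, and that of rank 101 at 86.1, 90.0 and 83.5 CPM with stimulated PD rat 1 at 83.0 CPM. The values just inside and just outside were alike, so the limit at 100 marks no break.

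The lowest PD library exceeded the highest other library by a median factor of 1.04 over the 100 features, with a range of 1.01 to 1.34. The rule fixed every such ratio above 1, and for 71 of the 100 its exact binomial 95% interval included 1, which describes the counting precision and tests nothing. Group means differed more: the mean CPM of PD rats was 1.33 times the mean of the 9 others in the median feature and 1.11 to 2.58 times over the list. It was at least 1.5 times as high for 28 features and at least 2 times as high for 7. The median of this ratio was 1.83 below 5 CPM, 1.33 between 5 and 50 CPM and 1.28 at 50 CPM and above.

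As deposited, the list held more abundant features than the table as a whole. Features with a mean of 50 CPM or more were 47 of the 100, where they were 29.8% of all features considered, and features below 5 CPM were 17 of the 100, against 21.7%. The median mean level was 43.1 CPM in the list and 22.1 CPM over all features, and the list ran from 0.548 to 1430 CPM. The first 100 features chosen in the same way had a median of 33.9 CPM with TMM factors (edgeR's trimmed mean scaling, which brings most features of each library to a common level), 30.9 CPM with median-of-ratios factors and 3.17 CPM after quantile normalization, so under quantile scaling they were scarcer than the median feature. Summed, the 100 features took 1.27%, 1.46% and 1.32% of reads in PD rats 1, 2 and 3 and 0.946% to 1.16% in the 9 others. These sums follow from how the features were chosen.

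The 3 PD rats did not contribute alike. PD rat 2 was the highest of the 3 for 71 of the 100 features, where it was the highest PD rat for 34.5% of all features considered. PD rat 1 was the lowest of the 3 for 60, against 37.8% of all. In 11 features PD rat 2 was at least 1.5 times as high as both other PD rats, and in 0 features did PD rat 1 or 3 stand out in this way. For 60 features the highest PD rat was less than 1.3 times the lowest. The median range among PD rats was 0.30 on the log2 scale for the 100 features and 0.55 for all features. The same medians were 0.19 and 0.24 in controls, 0.33 and 0.30 in stimulated controls, and 0.20 and 0.26 in stimulated PD rats. The rule takes the lowest PD rat, so the range among PD rats is not free of the choice of features. Why it was narrower in the list was not tested. In the median feature, PD rats 1, 2 and 3 stood 0.28, 0.54 and 0.33 above the mean of the 9 others on the log2 scale, whereas the median of all features was -0.12, -0.21 and -0.06.

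**Figure D2:**
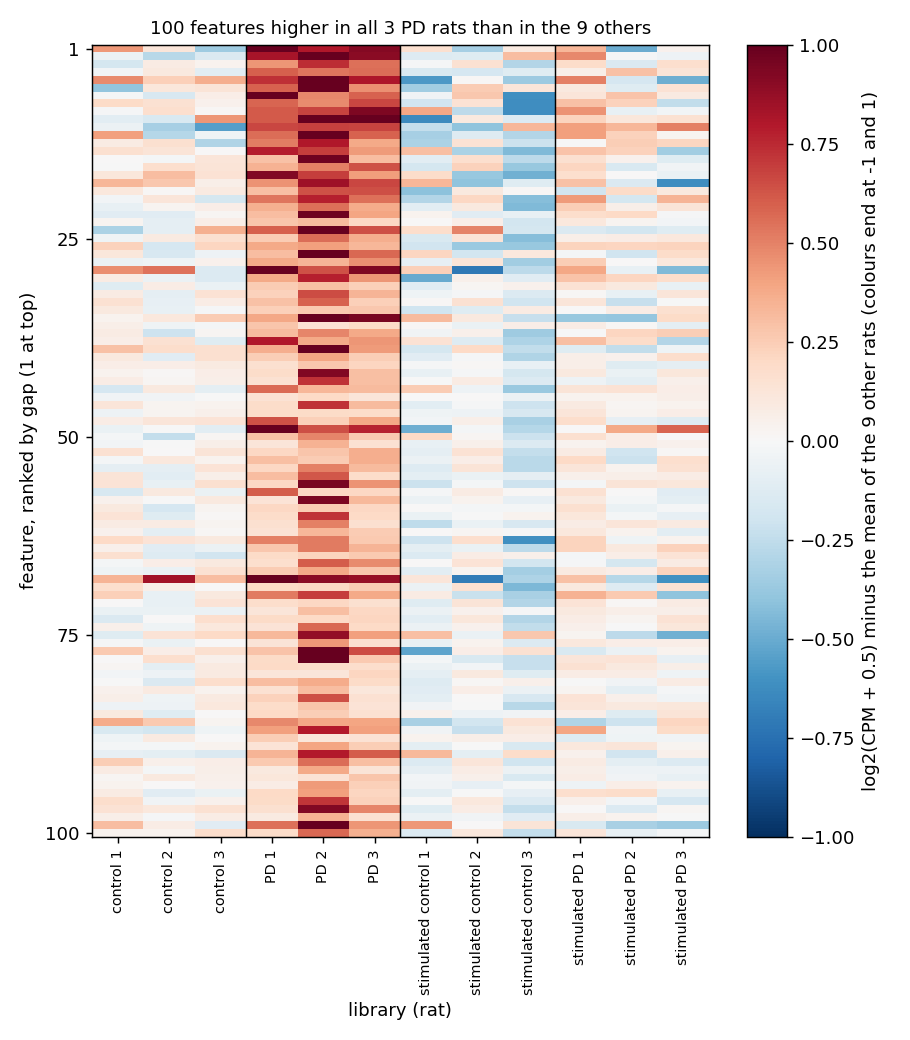
Difference of log2(CPM + 0.5) from the mean of the 9 other rats (colour, ending at -1 and 1) for the 100 features (rows, by gap) in the 12 rats (columns, black lines between groups). The 3 PD columns are red throughout, most strongly in PD rat 2, which was the highest of the 3 for 71 features, and stimulated control rat 3 is mostly blue.

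Of the features on which PD rats exceeded the controls, fewer also exceeded the stimulated PD rats than the stimulated controls. PD rats lay above all 3 controls for 870 features (5.81% of those considered). Of these, 615 were also above all 3 stimulated controls, but 146 were above all 3 stimulated PD rats, and 111 were above both. PD rats lay above all 3 stimulated PD rats for 638 features (4.26%) and above all 3 stimulated controls for 1002. These counts share the PD libraries and were not tested against each other. With TMM factors the corresponding counts were 1993 above controls, 1605 also above stimulated controls and 424 also above stimulated PD rats. Among the 42 features called higher in PD than in control rats by limma, 9 were on the list of 100 and none of the 11 left out was among them. For the other 33, at least 1 of the 9 rats reached the lowest PD rat: 32 were reached only by a stimulated PD rat and 1 by a stimulated control.

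The same rule was applied to each of the other groups of 3 rats. It found 82 features higher in the controls alone (0.547% of those considered), 224 higher in stimulated controls alone (1.49%) and 231 higher in stimulated PD rats alone (1.54%), beside the 111 of PD rats (0.741%). With the values as deposited, the PD group thus had fewer such features than either stimulated group and more than the controls. The groups also differed in spread. Over all features the median range within a group on the log2 scale was 0.55 in PD rats and 0.24 in controls. It was 0.30 in stimulated controls and 0.26 in stimulated PD rats. The part of this spread in the counts was not tested. Gaps above 0.2 were found for 5, 14 and 6 features in these 3 groups and for 6 in PD rats, and the widest gaps were 0.46, 0.42 and 0.31, against 0.37. In the opposite direction, 810 features (5.41%) were lower in PD rats alone, with 621 under TMM, 612 under median-of-ratios and 426 under quantile scaling, and under the last of these the lower features were no longer the more numerous.

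The order of PD and control rats rested on single libraries. Controls had the larger count without control rat 1, 2 or 3 (176, 339 and 145, against 127, 117 and 136 for PD rats), as a group of fewer rats meets the rule more easily. They also had it without stimulated control rat 2 (212 against 117) or 3 (228 against 118). Without PD rat 3 the PD count, 307, exceeded the 254 of stimulated controls and the 245 of stimulated PD rats, and without PD rat 1 it was 947 against 231 and 1232.

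The order of the groups also depended on how libraries were scaled. The count for PD rats was 368 with TMM factors, 380 with those of the median of ratios and 467 when quantiles were equalised. The counts for the other groups were 64, 54 and 81 in controls, 126, 140 and 103 in stimulated controls and 147, 146 and 259 in stimulated PD rats. Under these 3 scalings the PD group had the most features of the 4 groups. They moved the median log2 difference of all features between PD and control rats from -0.11 to 0.03, 0.03 and 0.05, which raises the PD libraries against the controls. The TMM factors, by which levels are divided, were 0.92, 0.895 and 0.984 in PD rats. They were 0.992, 1.03 and 0.922 in stimulated PD rats, so stimulated PD rat 3 was raised as well. Of the 100 features, 91, 96 and 84 kept a positive gap, and 63, 66 and 35 were still among the first 100.

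**Figure D3:**
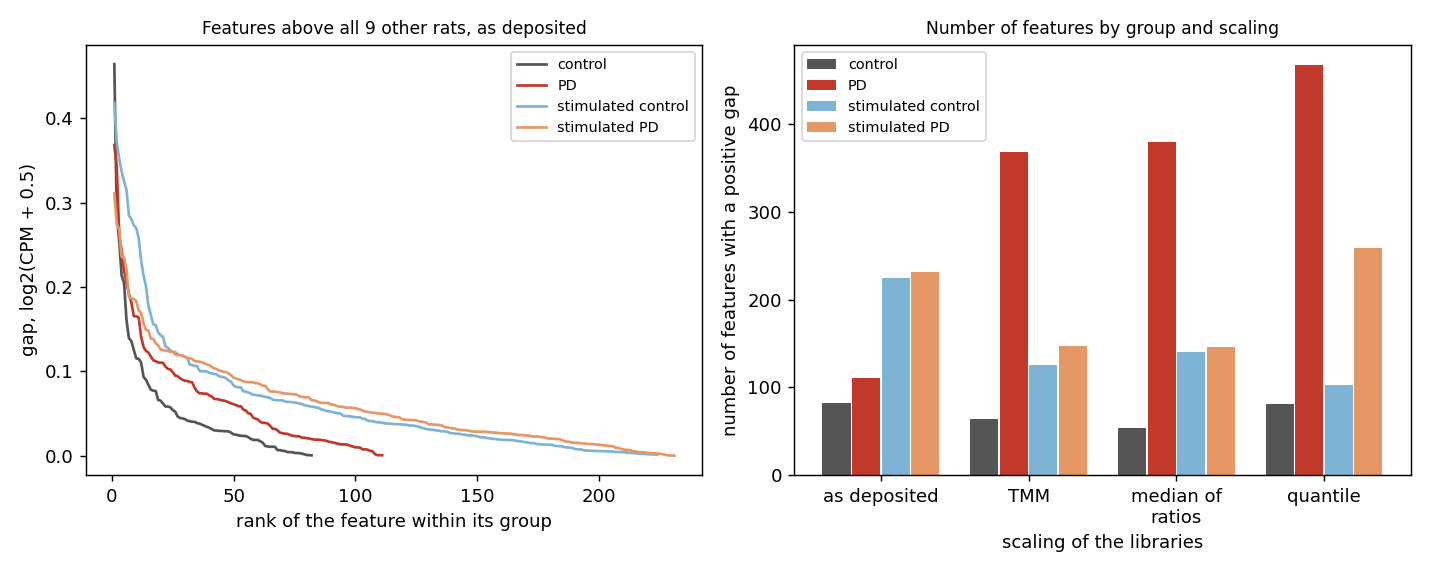
Left, gap on the log2(CPM + 0.5) scale (vertical) against rank (horizontal) for features higher in all 3 rats of a group than in the 9 other rats, as deposited, with 1 line per group. Right, number of such features (bars from 0) for the 4 groups under each scaling: 111 in PD rats as deposited, and 368, 380 and 467 after TMM, median-of-ratios and quantile scaling, when PD has the tallest bar.

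The PD count was 947 without PD rat 1, 197 without PD rat 2 and 307 without PD rat 3. Removing a PD rat can only raise the count, since fewer rats must exceed the others. Only 15 of the 100 features were among the first 100 without PD rat 1, against 60 without PD rat 2 and 44 without PD rat 3. Leaving out a rat of another group gave 117 to 158 features.

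The rule does not use which group each of the 9 other rats belongs to, but it takes their highest level and so removes features that are high in any of them. Differences among their 3 groups are thus not free of the choice of features, and the counts below are descriptions of the list. In the median feature, stimulated PD rats stood 0.05 above the mean of the 9 on the log2 scale, controls 0.03 above and stimulated controls 0.08 below (-0.08), while PD rats stood 0.39 above. The same medians over all features were -0.07, 0.01, 0.05 and -0.11. With TMM factors the 4 values for the list were 0.11, 0.02, -0.13 and 0.52. Stimulated PD rats thus lay near the controls for these features and far from the PD rats, a distance from PD that the rule requires.

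A stimulated PD rat was the nearest to the PD rats for 51 of the 100 features, a control for 34 and a stimulated control for 15. Over all features the highest of the 9 rats was from these groups in 32.1%, 26.8% and 41.0%. Stimulated PD rat 1 alone was the nearest for 29 features. Stimulated control rat 3, which was the highest of the 9 rats for 30.1% of all features, was the nearest for 0 of the 100. With TMM, median-of-ratios and quantile scaling a stimulated PD rat was the nearest for 83, 80 and 79 features.

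In the comparison of stimulated PD rats with stimulated controls, by limma, 0 of the 100 passed at an adjusted p under 0.05, where 1.45% of all features passed. That background of 217 features was itself unstable: 12 passed with TMM factors, 14 with median-of-ratios factors, 740 after quantile normalization and 2 with the rat number of the titles as a block. It was 2163 with only these 2 groups fitted. Leaving out PD rat 1 or 2, which are outside this comparison, gave 1876 and 2258. The estimate was above 0 for 83 of the 100, against 36.3% of all features, and its median was 0.12 for the list and -0.12 over all. An unadjusted p under 0.05 was reached by 10 features with higher and 1 with lower levels in stimulated PD rats, where 7.90% and 18.4% of all features did so. All 3 stimulated PD rats lay above all 3 stimulated controls for 21 features (14.3% of all features) and below them for 2 (27.1%). edgeR called 0 of the 100 (0.1% of all features) and DESeq2 called 4 (13.5% of all). The smallest limma adjusted p, 0.063, belonged to the feature of rank 26 (log2 difference 0.54, SE 0.15). Under TMM, median-of-ratios and quantile scaling 94, 94 and 93 of the estimates were above 0, and the median of all features was -0.02, -0.03 and 0.02.

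Between stimulated PD rats and unstimulated controls the median difference of the 100 features was smaller. By limma, 0 of the 100 features passed, where 0.0334% of all did. With only these 2 groups fitted, 3 of the 100 and 19.1% of all features passed. The estimates were above 0 for 57 and below 0 for 43, with a median of 0.02 for the list and -0.09 over all features. That near-even split held only as deposited. With TMM, median-of-ratios and quantile scaling 75, 73 and 74 estimates were above 0. The list medians were then 0.09, 0.09 and 0.08, and those of all features -0.02, -0.02 and 0. An unadjusted p under 0.05 was reached by 3 of the 100 and by 20.9% of all features. The 3 and 3 libraries did not overlap, with stimulated PD rats higher, for 10 of the 100 (15.4% of all features) and, with stimulated PD rats lower, for 7 (25.9%). edgeR called 0 (0.0334% of all features) and DESeq2 called 1 (6.98% of all). The smallest limma adjusted p was 0.113, for the feature of rank 11, which stood at 3.27, 3.29 and 3.29 CPM in PD rats and 2.64, 2.48 and 2.86 CPM in stimulated PD rats. Controls had 1.77, 1.38 and 1.12 CPM of it and stimulated controls 1.51, 1.29 and 2.47 CPM, so each stimulated PD rat lay above each unlesioned rat.

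For stimulated against unstimulated controls the estimate was below 0 for 80 of the 100, where 59.0% of all features had an estimate above 0, and its median was -0.10, against 0.03 over all. By limma 0 of the 100 and 0% of all features passed, with a smallest adjusted p of 1. An unadjusted p under 0.05 was reached by 4 of the 100, each lower in stimulated controls, and by 1.79% of all features (0.614% lower, 1.17% higher). edgeR and DESeq2 both called 0. All 3 stimulated controls lay below all 3 controls for 13 features and above them for 0, against 3.40% and 5.49% of all features. Stimulated control rat 3 was the lowest of its group in the median feature, at -0.18 from the mean of the 9, with rats 1 and 2 at -0.07 and 0.02. With TMM, median-of-ratios and quantile scaling 86, 86 and 92 estimates were below 0.

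The spread used in these 3 comparisons also depends on the choice of features. The median residual SD of the fit was 0.160 on the log2 scale for the list and 0.226 over all features.

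**Figure D4:**
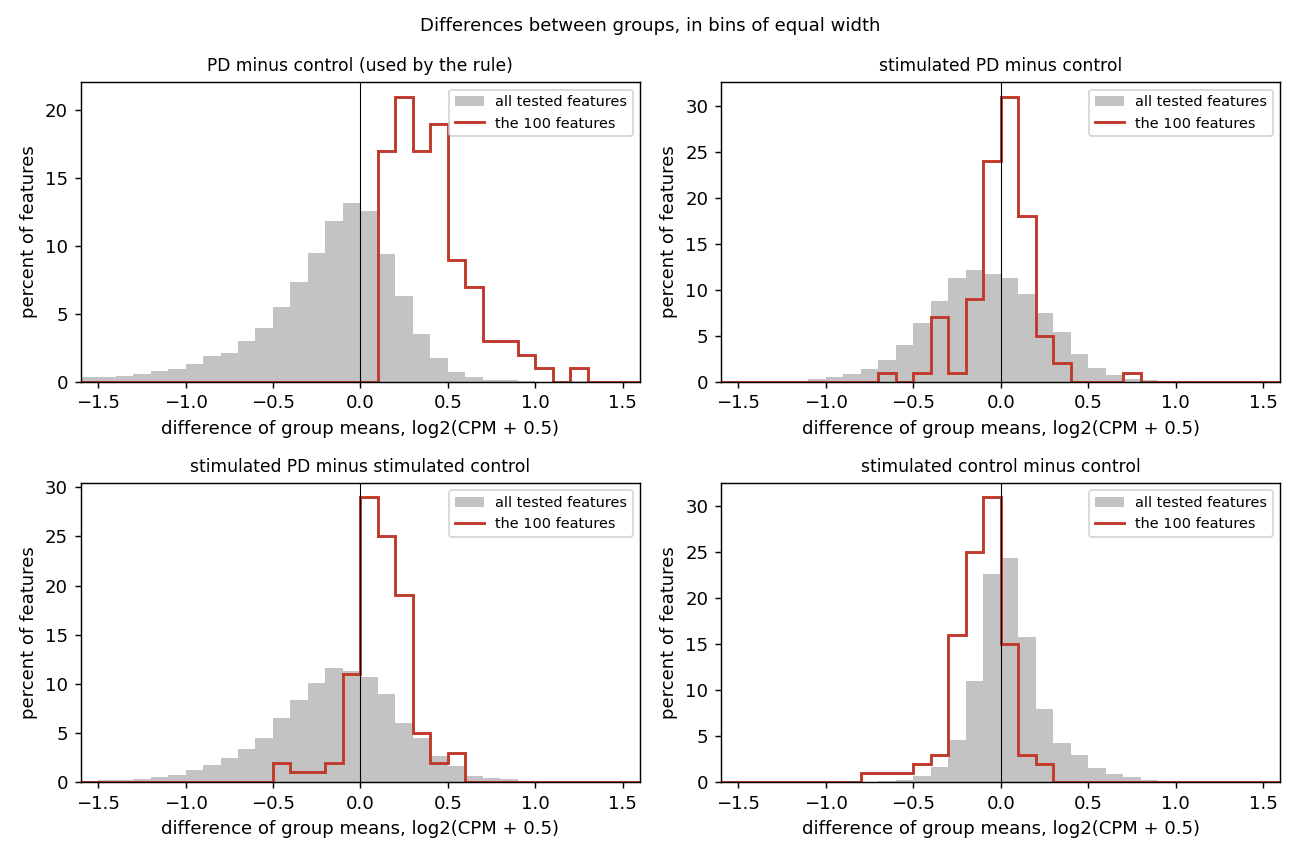
Distribution of the difference of group means on the log2(CPM + 0.5) scale (horizontal) as percent of features (vertical), for all features (grey) and the 100 (red line), in 4 comparisons. The red line lies wholly above 0 for PD minus control, as the rule requires. The 100 have medians of 0.02, 0.12 and -0.10 in the other 3 comparisons.

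The 2 comparisons that contain the PD rats are described only. Against controls, 9 of the 100 features were called higher in PD rats by limma (0.28% of all features were), from a list in which every estimate was above 0 by choice, between 0.12 and 1.28 with a median of 0.36. The log2 difference was 1.28 (SE 0.23) for ENSRNOG00000016999, which was among the 9, and 0.84 (SE 0.25) for ENSRNOG00000009564, which was not. The 9 held ranks 2, 3, 10, 11, 22, 49, 64, 87 and 90, so features were called at both ends of the ranking by gap. Called in either direction were 4.38% of all features by limma, 3.17% by edgeR and 13.6% by DESeq2. The count among the 100 was 14 by edgeR and 76 by DESeq2, each higher in PD rats. The shares of all features called higher by edgeR or DESeq2 were not counted. By limma it was 0 without control rat 1, control rat 2 or PD rat 2. The shares of all features then called were 0.0267%, 0.347% and 0.574%.

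Against PD rats, 0 of the 100 passed in stimulated PD rats by limma (0% of all features). An unadjusted p under 0.05 was reached by 58, each lower in stimulated PD rats. Over all features 17.4% reached it, 5.71% lower and 11.7% higher. The median log2 difference was -0.36, from -1.17 to -0.08. edgeR called 0 (0% of all features) and DESeq2 called 32 of the 100, each lower in stimulated PD rats (6.05% of all features in either direction). Without PD rat 1 limma called 30 of the 100, when it called 2943 features (19.6%) in all. The interaction of lesion and stimulation, which the rule also used, was called by limma for 0 of the 100 (0% of all features). An unadjusted p under 0.05 was reached by 9 of the 100, each with an estimate below 0. Over all features 4.13% reached it, 1.23% with an estimate below 0.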

How the data were processed

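Messenger RNA of motor cortex was sequenced from 12 rats using a stranded mRNA kit, per the labels' protocols. The submitters' processing notes name Trim Galore, STAR, featureCounts and mRatBN7.2 without versions, and the sources used here state no annotation or strand setting. Values were deposited by the authors as CPM. No value is 0. A feature without counted reads in some rat is therefore absent from the deposited values, and the rule could not find it. Each value was a whole multiple of a step per library (100% within 0.001 read), so whole reads were recovered; 0.019% to 0.13% of reads lay outside the table. All columns matched a sample, with 0 left over.

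The main test was limma 3.58.1 (R 4.3.3) on log2(CPM + 0.5) with all 4 groups, 8 residual degrees of freedom, a trended prior variance and Benjamini-Hochberg adjustment over 14985 features, two-sided. Alternatives were edgeR 4.0.16 and DESeq2 1.42.0 on recovered reads, other pseudocounts, filters, scalings and fits, and leaving out each library. The test was checked on simulated counts with the same dispersion for every feature and group. That check does not cover the unequal spread of the groups here. The features and 33 gene lists were chosen with earlier results of these data known; the lists, and naming by symbol (the 15 with the widest gap, list members, those beside the limit), could not be used because identifiers were not paired with symbols. Features printed without a symbol were instead the first 5 by gap, those beside the limit, and the smallest p of a comparison, chosen after values were seen.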

Additional observations from a re-analysis of the deposited data

How the results depend on the processing

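The rule was recomputed under 19 alternatives and each comparison under 24. The number of features higher in PD rats alone was 368, 380 and 467 with TMM, median-of-ratios and quantile scaling, and 117 to 947 when each library was left out. Of the 100, 63, 66 and 35 were among the first 100 under those scalings, and 15 to 95 with a library left out. Both stayed within 1.5 times the main value with other pseudocounts, no filter or a mean of at least 2 CPM. For PD against control, 9 features were called (4.38% of all features in either direction), against 14 with TMM (3.02%), median-of-ratios (3.03%) and edgeR (3.17%). The count was 5 with only the 2 compared groups fitted (4.12%) and 76 by DESeq2 (13.6%). It was 2 with a replicate block by title number (1.88%) and 0 by description number (0%). With a library left out it was 0 to 12, the 12 without PD rat 1, when 4.39% of all features passed. For stimulated PD against stimulated control, 0 were called, against 3 with quantile scaling (4.94% of all features), 2 with only those groups fitted (14.4%) and 4 by DESeq2 (13.5%). With a library left out it was 0 to 4, the 4 without PD rat 2, when 15.1% of all features passed. For stimulated PD against control, 0 were called, against 3 with only those groups fitted (19.1%) and 1 by DESeq2 (6.98%). With a library left out it was 0 to 0, when at most 8.12% of all features passed (without PD rat 2). For stimulated PD against PD, 0 were called, against 32 by DESeq2 (6.05%). With a library left out it was 0 to 30, the 30 without PD rat 1, when 19.6% of all features passed. Stimulated control against control gave 0 throughout. The cause of these changes was not tested, except that leaving out a rat loosens the rule.

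The title numbers did not meet the criterion for pairing: of 18 same-numbered pairs of rats 3 had deviations from their group means with r over 0.1 (-0.46 to 0.36), and a library's own number correlated best in 12 of 36 choices. The numbers in the short descriptions differ from the titles for PD and stimulated PD rats. Blocking by them was added after seeing the data: 1 of 13 such pairs had r over 0.1 (-0.46 to 0.16). For the list, either replicate block moved only the PD against control count, to 2 by title and 0 by description number. Over all features, limma calls for PD against control fell from 657 to 282 and 0. Those for stimulated PD against stimulated control fell from 217 to 2 and 23, and for stimulated PD against control from 5 to 2 and 1.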
